A study of Mus musculus with 6 samples.

Results

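The genes described here encode the subunits of the oxidative phosphorylation system, the set of inner-membrane complexes by which mitochondria respire and make ATP. They were taken by symbol from the deposited gene table: the Nduf genes of the a, b, c, s and v series followed by a digit, Uqcr genes, Cox4 to Cox8 genes, Atp5 genes, Sdha to Sdhd, and the protein-coding genes of the mitochondrial genome, without symbols marked as pseudogenes. This gave 97 members among 49492 rows, of which 84 lie in the nucleus and 13 in mitochondrial DNA (mtDNA). Complex I holds 42 members (35 nuclear, 7 mtDNA), complex II 4, complex III 9 (8 nuclear, 1 mtDNA), complex IV 23 (20 nuclear, 3 mtDNA) and complex V 19 (17 nuclear, 2 mtDNA). Ndufa4 and Ndufa4l2 were placed in complex IV, where the Ndufa4 protein is known to sit in spite of its name, and Atp5s and Atp5sl, which carry the name but are not structural subunits, were counted with complex V. A total of 92 members had enough counts to be tested, and the other 5 (Cox6b2, Cox7b2, Cox8b, Cox8c and Ndufa4l2) did not.

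RNA was sequenced from RAW264.7 cells, a mouse macrophage line, in 3 libraries labelled as Ep300-silenced (50 nM of an siRNA to Ep300 for 48 h) and 3 labelled as control (50 nM of a non-targeting siRNA for 48 h). Ep300 encodes p300, an acetyltransferase that acts as a transcriptional coactivator. All libraries are of the same line, so they describe transfected cells of a transformed macrophage line and not macrophages of an animal. Nothing in the labels tells separate cultures from repeat libraries of one culture, so the p-values reflect the spread among these 6 libraries alone, which may be technical.

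Complex I (NADH dehydrogenase) and complex II (succinate dehydrogenase) feed electrons to ubiquinone, complex III passes them to cytochrome c, complex IV (cytochrome c oxidase) reduces oxygen, and complex V (ATP synthase) uses the proton gradient that complexes I, III and IV build. Complex II is encoded wholly in the nucleus, whereas the other complexes combine nuclear subunits with a few made inside the mitochondrion, so that transcripts of both genomes are needed for assembly. In macrophages the respiratory chain is known to change with activation: inflammatory stimuli lower respiration, and the chain is a source of reactive oxygen species.

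Ep300 itself stood at 51.1, 59.0 and 54.9 CPM (counts-per-million, scaled by library size) in the Ep300 siRNA libraries, against 106.8, 115.3 and 118.4 CPM in the control libraries. Total counts ran from 29993567 to 37132333 in the Ep300 siRNA libraries and from 35930658 to 45377510 in the control libraries. The 9 macrophage markers summed to between 10808 and 11735 CPM in the Ep300 siRNA libraries and between 9548 and 11184 CPM in the control libraries, whereas the markers of each of 7 other cell types (23 genes, of which 4 were high enough to test) summed to at most 1.10 CPM in any library. Lyz2 made up most of the macrophage sum, at up to 8719 CPM. No macrophage marker passed the test. Csf1r (0.850-fold) and Adgre1 (0.851-fold) were lower, and Cd14 (1.19-fold) and Cd68 (1.10-fold) higher, in every Ep300 siRNA library than in any control library. Groups lay apart in this way for 27.5% of all genes tested. The groups of Itgam, Lyz2, Ptprc, Fcgr1 and Mrc1 overlapped. Gm42418, a row that takes up ribosomal RNA reads, stood at 5691 CPM before scaling in Ep300 siRNA replicate 1, against 1321 to 2148 in the other 5 libraries. The call on Ndufa4 described below was also made without that library.

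Transcripts of the oxidative phosphorylation subunits differed little between Ep300-silenced and control cells. Of the 92 members tested, 2 passed an adjusted p of 0.05 by edgeR (2.17%; 1 higher, 1 lower), against 6.78% of all 15741 genes tested (2.76% higher and 4.02% lower). Over all genes that was 435 higher and 633 lower, and 316 higher and 788 lower when counts were scaled by library size alone, with the same 2 members called. An unadjusted p under 0.05 was reached by 6 of the 92 members, against 3493 of the 15741 genes. The 3 libraries of one group lay wholly above or below the 3 of the other for 4 members (4.35%; 1 higher, 3 lower), against 27.5% of all genes tested (13% higher, 14.4% lower). The median log2 fold change of Ep300 siRNA over control siRNA was −0.01 over the 92 members, −0.02 over the 79 nuclear ones and 0.04 over the 13 mtDNA ones, beside −0.004 over all genes. The median size of the change, without sign, was 0.063 on the log2 scale for the members and 0.141 for all genes. Neither this comparison nor that of intervals below was matched for expression level, and the median SE was 0.087 for the members and 0.104 for all genes.

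These small changes were measured with some precision. For 88 of the 92 members the 95% interval of the fold change lay within 1.5-fold in either direction, which held for 10581 of the 15741 genes. The other 4 were nuclear members of complex IV: Ndufa4, whose interval lies wholly below 0, and Cox4i2, Cox6a2 and Cox7a1, which have few counts. By complex, the median log2 fold change was 0.01 for complex I, −0.007 for complex II, −0.02 for complex III, −0.06 for complex IV and −0.03 for complex V. RNA of whole cultures cannot tell fewer cells of a kind apart from less RNA per cell.

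**Figure D1:**
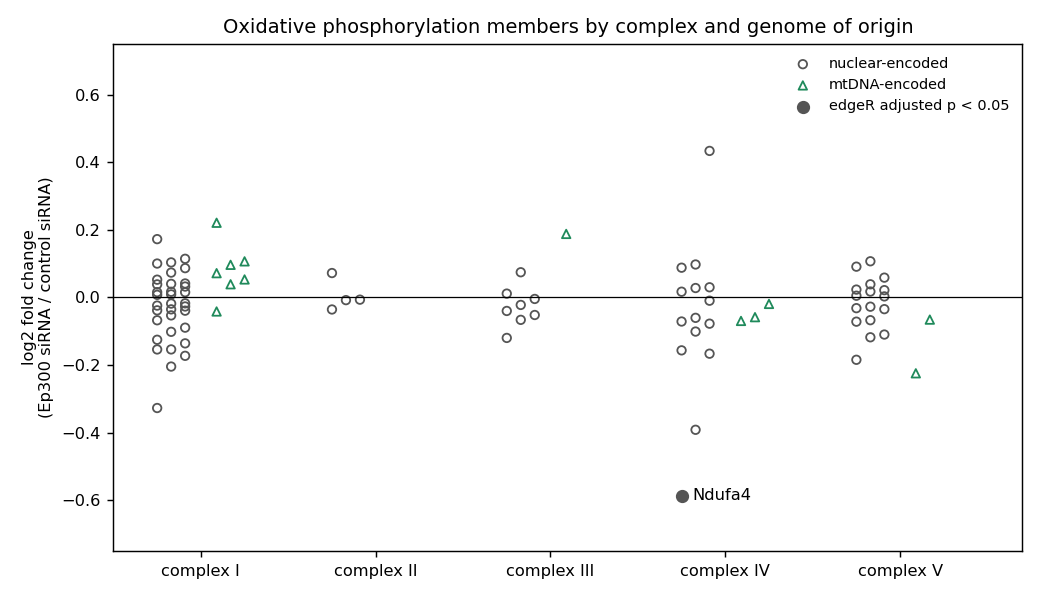
Log2 fold change (vertical axis, Ep300 siRNA over control siRNA) of 91 of the 92 members tested, by complex (horizontal axis) and genome of origin; circles are nuclear and triangles mtDNA-encoded members, and filled symbols passed an edgeR adjusted p of 0.05. Apart from Ndufa4 at −0.59, the points lie close to 0, and the unfilled outlying points of complex IV are Cox7a1 at 0.43 and Cox4i2 at −0.39, which have few counts.

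Of the complex I members described here, none passed the test. Ndufb3, a small accessory subunit of the membrane arm, had 13.7, 10.96 and 14.0 CPM after Ep300 siRNA and 15.6, 15.7 and 17.2 CPM after control siRNA. Its groups did not overlap, and its log2 fold change of −0.33 ± 0.10 (SE) missed the threshold (edgeR adjusted p = 0.0864). Ndufs8, which carries iron-sulfur clusters of the electron path, was at −0.20 ± 0.08 (SE, adjusted p = 0.137) and also had groups apart, at 50.5, 43.7 and 47.6 CPM after Ep300 siRNA and 59.2, 50.7 and 53.4 CPM after control siRNA. Ndufa13, an accessory subunit also known as GRIM-19, had overlapping groups and a log2 fold change of 0.17 ± 0.07 (SE, adjusted p = 0.159). Of the core subunits of the NADH-oxidizing arm, Ndufs1, the largest of them, was at 0.02 ± 0.06 (SE). Ndufv2 was at 0.05 ± 0.07 and Ndufv1, which binds the flavin, at −0.15 ± 0.09. Of the 35 nuclear complex I members, 17 had positive and 18 negative values.

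**Figure D2:**
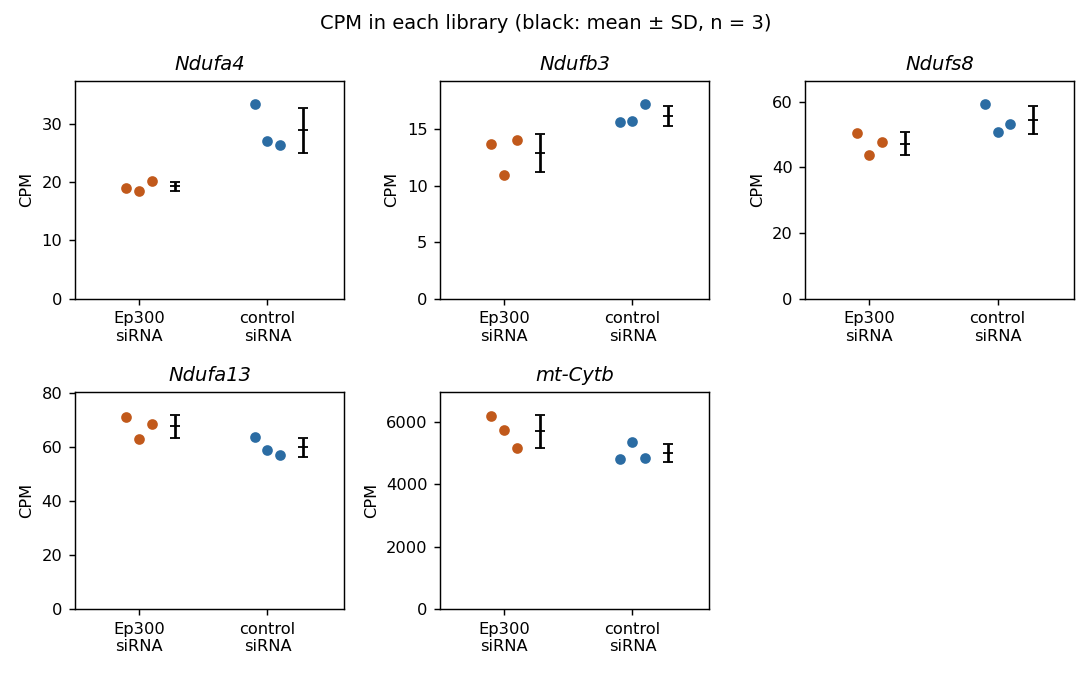
CPM (vertical axis, from 0) in each of the 3 Ep300 siRNA libraries (orange, left) and 3 control siRNA libraries (blue, right) for 5 of the 6 members with an unadjusted p under 0.05; black bars give mean ± SD. Ndufa4 lies lower in all Ep300 siRNA libraries than in any control library, the groups of Ndufb3 and Ndufs8 are apart by narrow gaps, and those of Ndufa13 and mt-Cytb overlap.

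None of the 4 subunits of complex II passed edgeR's adjusted p or an unadjusted p under 0.05, and their log2 fold changes ran from −0.04 to 0.07. Sdha, the flavoprotein that oxidizes succinate, had 309.1, 289.0 and 295.4 CPM in Ep300-silenced cells and 275.0, 291.2 and 283.7 CPM in control cells. Its groups overlapped. The difference, 0.07 ± 0.06 on the log2 scale (SE), had a 95% interval of −0.06 to 0.20 and an edgeR adjusted p of 0.533. Sdhb, the iron-sulfur subunit, was at −0.007 ± 0.07 (SE), and the membrane anchors Sdhc and Sdhd were at −0.008 ± 0.08 and −0.04 ± 0.06. Per annotated exon length, Sdha was the highest of the 4, at a mean of 183.9 TPM (transcripts-per-million) after Ep300 siRNA and 179.6 TPM after control siRNA. Sdhd followed at 105.2 and 110.6 TPM.

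In complex III no nuclear member passed. Uqcrb, a small subunit, had a log2 fold change of 0.07 ± 0.09 (SE), and Uqcr11 had −0.12 ± 0.09 (adjusted p = 0.466). The core proteins Uqcrc1 and Uqcrc2 were at −0.02 ± 0.06 (SE) and −0.05 ± 0.06, and the Rieske iron-sulfur protein Uqcrfs1 at −0.004 ± 0.08. The mtDNA-encoded partner of these proteins, cytochrome b (mt-Cytb), had 6184, 5747 and 5147 CPM in Ep300-silenced cells, against 4821, 5336 and 4834 CPM in control cells. The lowest Ep300 siRNA library lay below the highest control library. Of the 13 mtDNA genes, mt-Cytb alone had an unadjusted p under 0.05, and after adjustment it did not pass (edgeR adjusted p = 0.217).

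Complex IV held the largest change of the set. Ndufa4 (ENSMUSG00000029632.7, GRCm38 chromosome 6, 11900292 to 11907497, minus strand), a subunit at the surface of cytochrome c oxidase, had 19.0, 18.5 and 20.1 CPM in Ep300-silenced cells, against 33.3, 27.0 and 26.3 CPM in control cells. Every Ep300 siRNA library lay below every control library, and control replicate 1 was the highest of the 6. Relative to control cells the level of Ndufa4 fell to 0.666, a log2 fold change of −0.59 ± 0.09 (SE; 95% interval −0.80 to −0.38; edgeR adjusted p = 0.0044). The transcript of Ndufa4 that was searched, of 610 bases, shares no stretch of 50 bases with another annotated gene. Its annotated exons, 1381 bases in union, overlap those of no other gene. The exon bases outside that transcript were not searched for shared stretches. Ndufa4 was the only 1 of 18 complex IV members tested to pass.

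Ndufa4 has relatives that can take its place in the oxidase, one of which marks hypoxia and another activated macrophages. Ndufa4l2, the hypoxia-induced paralog, had between 0 and 4 counts in the Ep300 siRNA libraries and between 0 and 4 in the control libraries, too few to test. AA467197, the gene also called Nmes1 and named here after its values were seen, had 0, 0 and 4 counts after Ep300 siRNA and 2, 2 and 4 counts after control siRNA. At these counts no difference between the groups was detectable for either gene.

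The promoter of Ndufa4, from 250 bases before to 50 after the annotated start (RefSeq, GRCm38.p6, chr6:11907401-11907700, minus strand), is shown because this gene fell most. It was searched on both strands for letters bound by factors known for driving nuclear respiratory genes, and held none of them.

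Ndufa4 promoter: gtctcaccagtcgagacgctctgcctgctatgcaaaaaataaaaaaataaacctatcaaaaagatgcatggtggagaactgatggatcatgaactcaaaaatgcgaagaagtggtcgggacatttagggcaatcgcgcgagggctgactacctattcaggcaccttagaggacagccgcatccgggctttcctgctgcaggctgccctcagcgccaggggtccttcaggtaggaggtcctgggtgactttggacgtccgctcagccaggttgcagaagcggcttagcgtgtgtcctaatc

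The motifs searched were the NRF1 palindrome (its matches stand in capitals in the Sdha promoter), CCGGAAG for ETS factors such as GABPA, and the YY1 motif. Of the 84 nuclear members, 69 have an entry in the RefSeq promoter table. The NRF1 letters were found in 16 of these promoters (23.2%), against 4.78% of all 27025 promoters of the same length. The ETS letters were in 15 (21.7%), against 9.12%, and the YY1 letters in 5 (7.25%), against 0.899%. The presence of such letters is a description of the window and says nothing of what is bound there. The promoter of Sdha is printed because this gene had the highest CPM of the 16 members with the NRF1 letters. It holds these letters 3 times within 300 bases (RefSeq, GRCm38.p6, chr13:74350191-74350490, minus strand, matches in capitals).

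Sdha promoter: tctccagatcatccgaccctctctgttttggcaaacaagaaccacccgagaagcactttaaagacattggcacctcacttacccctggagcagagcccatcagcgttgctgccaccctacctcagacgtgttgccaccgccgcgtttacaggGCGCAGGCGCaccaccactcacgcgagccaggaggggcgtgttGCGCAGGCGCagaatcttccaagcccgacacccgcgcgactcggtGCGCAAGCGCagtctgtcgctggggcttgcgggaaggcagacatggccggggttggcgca

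Medians were alike with and without these motifs. The 16 members with the NRF1 letters had a median log2 fold change of −0.02, from −0.17 to 0.10, and the 50 tested members without them also had a median of −0.02. With the ETS letters the median was −0.02 over 15 members, and with the YY1 letters −0.03 over 5.

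Several complex IV subunits come as a widely expressed form and a form of particular tissues, and the widely expressed form was the higher in both groups. Cox4i1, the common form of subunit 4, had a mean of 428.2 TPM in Ep300-silenced cells and 413.5 TPM in control cells, whereas Cox4i2, its lung and hypoxia form, had 1.70 and 2.36 TPM. Cox6a1 stood at 54.6 TPM after Ep300 siRNA and 52.2 TPM after control siRNA, and its heart and muscle form Cox6a2 at 3.11 and 3.10 TPM. Cox7a2 stood at 36.6 and 39.2 TPM and its muscle form Cox7a1 at 1.97 and 1.45 TPM, in the same order of groups. Cox8a was at 67.9 TPM after Ep300 siRNA and 68.2 TPM after control siRNA, while Cox8b and Cox8c, and the testis form Cox7b2, had no count in any library. Cox6b2, the testis form of subunit 6b, had 0, 0 and 1 count after Ep300 siRNA and 2, 0 and 2 counts after control siRNA.

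None of these isoform genes passed the test. Cox4i2 had 9, 11 and 35 counts in the Ep300 siRNA libraries, against 22, 31 and 29 in the control libraries, and Ep300 siRNA replicate 3 was the highest of the 6 libraries. Its log2 fold change was −0.39 ± 0.45 (SE), and −1.16 without that library, where it did not pass either. Cox7a1 had 12, 12 and 18 counts after Ep300 siRNA and 21, 10 and 6 after control siRNA, at 0.43 ± 0.43 (SE), and between 0.16 and 0.90 with 1 library left out (0.90 without control replicate 1). Cox5a and Cox5b, subunits on the matrix side of the oxidase, were at −0.17 ± 0.11 (SE) and −0.16 ± 0.09 (edgeR adjusted p = 0.406 and 0.317).

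In complex V, none of the 19 members passed edgeR's adjusted p, and none reached an unadjusted p under 0.05. The catalytic subunit gene Atp5b had 1002, 870 and 976 CPM in Ep300-silenced cells, against 922, 943 and 907 CPM in control cells, with overlapping groups and a log2 fold change of 0.04 ± 0.07 (SE; 95% interval −0.12 to 0.19). Atp5a1, the other subunit of the catalytic ring, was at 0.06 ± 0.07 (SE) and Atp5c1, of the central stalk, at −0.03 ± 0.07. The membrane ring that turns with proton flow is built from one mature protein encoded by 3 genes. Of these, Atp5g3 was the highest per length, at 32.5 TPM after Ep300 siRNA and 35.1 TPM after control siRNA, followed by Atp5g2 at 18.8 and 19.7 TPM and Atp5g1 at 4.74 and 5.51 TPM. The gap between Atp5g1 and Atp5g2 depends on annotated exon length, 4912 bases against 1675. Without length, Atp5g1 had means of 9.14 CPM after Ep300 siRNA and 10.4 CPM after control siRNA, and Atp5g2 12.4 and 12.6 CPM. The log2 fold changes of Atp5g3, Atp5g2 and Atp5g1 were −0.07 ± 0.09, −0.03 ± 0.13 and −0.18 ± 0.13 (SE). Atp5sl, which is no subunit and is now named Dmac2, was at 0.11 ± 0.09 (SE).

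The most abundant nuclear member of each complex per annotated exon length was Ndufa2 in complex I (289.4 TPM after Ep300 siRNA, 323.7 TPM after control siRNA), Sdha in complex II, Uqcrb in complex III (678.1 and 660.7 TPM), Cox4i1 in complex IV and Atp5b in complex V (570.5 and 570.1 TPM). With the longest transcript as the length, Ndufa10 took the place of Ndufa2. Some stretch of 50 bases was shared with another annotated gene, such as a pseudogene copy or a neighbour with overlapping exons, for 54 of the 97 members, and for over 25% of such stretches in 21 of them. The share was 84.8% for Atp5l, 47.9% for Atp5h and 43.4% for Uqcrb, so counts of these genes depend on how shared reads were assigned, which is not stated.

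The mtDNA genes are where read assignment bears most on the values. A stretch of mouse chromosome 1 carries a near-identical copy of part of the mitochondrial genome, and 7 annotated pseudogenes in it, all on the minus strand, match 7 of the 13 mtDNA mRNAs over 294 to 876 bases. Of the copies, 5 match without a mismatch (Gm28661 of mt-Co2, Gm10925 of mt-Atp6, Gm28437 of mt-Co3, Gm10222 of mt-Nd4l and Gm28439 of mt-Nd4). Gm28438 differs from mt-Nd3 by T3C. Gm29216 differs from mt-Co1 by A1066T over the 483 of its 492 bases that aligned. Positions count from the first base of the mitochondrial transcript, and its base is given first. The first 60 bases of 2 such pairs are printed to show what a read would have to distinguish. The only base that differs is in capitals.

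mt-Nd3 (GRCm38 chrM:9459-9518, plus strand): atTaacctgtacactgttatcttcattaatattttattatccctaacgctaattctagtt
Gm28438 (GRCm38 chr1:24613060-24613119, minus strand): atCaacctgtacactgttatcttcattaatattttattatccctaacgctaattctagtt
mt-Co2 (GRCm38 chrM:7013-7072, plus strand): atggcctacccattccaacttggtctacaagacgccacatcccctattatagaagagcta
Gm28661 (GRCm38 chr1:24615506-24615565, minus strand): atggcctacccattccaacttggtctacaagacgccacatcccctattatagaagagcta

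The deposited counts of these pairs were split unevenly. Of the counts of mt-Co2 and its chromosome 1 copy together, 0.410% in Ep300-silenced cells and 0.429% in control cells (means of 3 libraries) stood in the row of mt-Co2, and the rest in Gm28661. Less similar copies on other chromosomes were left out of these shares and of the levels with copies added. On chromosome 2, Gm13341 of mt-Co2 (95.9% identity) held 2814 to 3888 counts per library. Gm13340 of mt-Co1 (97.6%), also on chromosome 2, held 6415 to 10385. The shares held by the mitochondrial gene were also low for mt-Atp6 (0.227% and 0.235%) and mt-Co3 (0.202% and 0.210%), intermediate for mt-Nd3 (32.1% and 30.1%), and high for mt-Co1 (87.2% and 86.6%), mt-Nd4l (99.7% and 99.8%) and mt-Nd4 (99.97% and 99.96%), in the same order of groups. Per library, the 7 copies took 2.31 to 2.47% of all counts after Ep300 siRNA and 2.30 to 2.59% after control siRNA, beside 3.46 to 3.70% and 3.33 to 3.84% in the rows of the 13 mtDNA genes. Levels of mt-Co2, mt-Atp6, mt-Co3 and mt-Nd3 as deposited are therefore uncertain, whereas the split itself was alike in the groups.

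Per kilobase of gene and as deposited, the mtDNA mRNAs spanned 837-fold, between a mean of 10.4 CPM for mt-Co3 and 8689 CPM for mt-Co1 over the 6 libraries. With each chromosome 1 copy added to its gene, mt-Co3 stood at 5117 ± 226 CPM per kilobase in Ep300-silenced cells and 4973 ± 367 in control cells (SD, n = 3), and mt-Co2 at 10390 ± 601 and 10356 ± 400. The highest was then mt-Atp6, at 16530 ± 728 CPM per kilobase after Ep300 siRNA and 16772 ± 1767 after control siRNA. The lowest was mt-Atp8, at 27.0 ± 3.35 and 31.5 ± 4.09, which shares 43 bases with mt-Atp6 and has no annotated copy among the 7. Its gene lies between mt-Co2 and mt-Atp6, whose copies both lie in the chromosome 1 stretch. Reads of mt-Atp8 placed between those copies would be in no row added here, which was not tested, so its level is uncertain too. mt-Nd3 also stayed low, at 150.5 ± 36.6 and 134.8 ± 15.3.

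**Figure D3:**
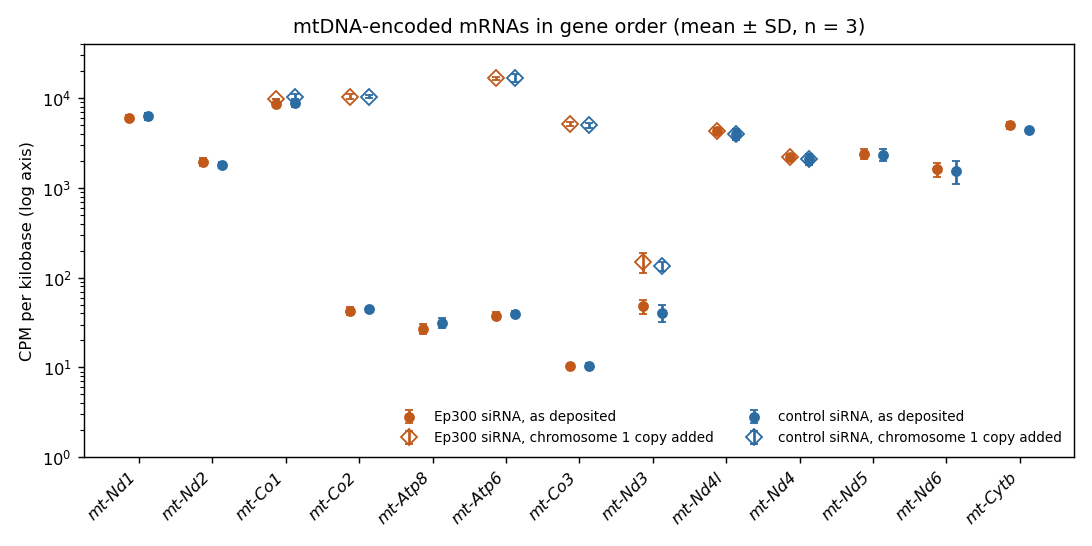
CPM per kilobase (vertical log axis) of the 13 mtDNA-encoded mRNAs in the order of their genes (horizontal axis), as mean ± SD of 3 libraries, with Ep300 siRNA in orange left of control siRNA in blue; filled circles are the deposited rows and open diamonds the same rows with the chromosome 1 copy added. Adding the copies raises mt-Co2, mt-Atp6 and mt-Co3 most, in both groups alike, and the orange and blue points of each gene lie close together.

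Between the groups, no mtDNA mRNA passed the test, and none had groups apart. In complex I, 6 of the 7 mtDNA members had positive log2 fold changes, from 0.04 to 0.22, and mt-Nd1, which has no shared stretch of 50 bases, was at −0.04 ± 0.09 (SE). The largest value was that of mt-Nd3, with 20.3, 14.9 and 14.9 CPM in Ep300-silenced cells, against 17.7, 13.2 and 11.7 CPM in control cells. It stood at 0.22 ± 0.16 (SE; edgeR adjusted p = 0.459), and at 0.42 without control replicate 1, where it did not pass either (adjusted p = 0.0972). Replicate 1 was the highest library of each group. Values for the others were 0.10 ± 0.09 for mt-Nd2, 0.11 ± 0.10 for mt-Nd4l, 0.07 ± 0.10 for mt-Nd4, 0.04 ± 0.12 for mt-Nd5 and 0.05 ± 0.17 for mt-Nd6, which lies on the strand opposite to the other 12 (0.32 without control replicate 1).

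The mtDNA subunits of complexes IV and V had negative log2 fold changes of the same small size. mt-Co1, the catalytic subunit of the oxidase, had 13093, 13093 and 13118 CPM after Ep300 siRNA and 12976, 15286 and 12983 CPM after control siRNA. Control replicate 2 stood apart above the other 5 libraries, and the log2 fold change of −0.07 ± 0.08 (SE) was 0.02 without it. mt-Co2 was at −0.06 ± 0.09 (SE), mt-Co3 at −0.02 ± 0.10, mt-Atp6 at −0.07 ± 0.09 and mt-Atp8 at −0.22 ± 0.14 (edgeR adjusted p = 0.383). With the copies added to their genes, which was chosen after the data were seen, the log2 fold changes were 0.005 for mt-Co2, 0.04 for mt-Co3 and −0.02 for mt-Atp6, so the signs of mt-Co2 and mt-Co3 depend on that choice. No mtDNA gene passed in that form either.

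Summed over members, the balance of the 2 genomes was alike in the groups. Nuclear members summed to 7464, 6630 and 7187 CPM in Ep300-silenced cells, against 7410, 6905 and 6866 CPM in control cells. The means were 7094 ± 425 and 7060 ± 303 CPM (SD, n = 3), a ratio of 1.005. The mtDNA members summed to 36616, 37428 and 34650 CPM after Ep300 siRNA and 36268, 38547 and 32695 CPM after control siRNA, a ratio of means of 1.011. The ratio of mtDNA to nuclear sums was 4.91, 5.65 and 4.82 after Ep300 siRNA, against 4.89, 5.58 and 4.76 after control siRNA. With the chromosome 1 copies included, the means were 8.55 ± 0.680 after Ep300 siRNA and 8.55 ± 0.699 after control siRNA. In each group the ratio was highest in replicate 2, and the difference between the groups was far smaller than the spread within each.

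Taken by complex, the sums of nuclear members differed between the groups by less than the larger of the 2 group SDs. Complex I summed to 1936 ± 101 CPM in Ep300-silenced cells and 1908 ± 122 CPM in control cells (SD, n = 3). Complex II summed to 425.5 ± 16.7 and 412.5 ± 4.87 CPM, complex III to 874.0 ± 56.6 and 878.1 ± 31.0 CPM, complex IV to 919.0 ± 93.4 and 953.2 ± 106 CPM, and complex V to 2939 ± 160 and 2908 ± 51.9 CPM, in the same order of groups. Among mtDNA members the sums were 17369 ± 1099 CPM after Ep300 siRNA and 17020 ± 1933 CPM after control siRNA in complex I, and 13139 ± 11.3 and 13787 ± 1333 CPM in complex IV. Complex III, here mt-Cytb alone, stood at 5693 ± 520 and 4997 ± 294 CPM, a gap wider than either SD, with overlapping libraries as given above.

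**Figure D4:**
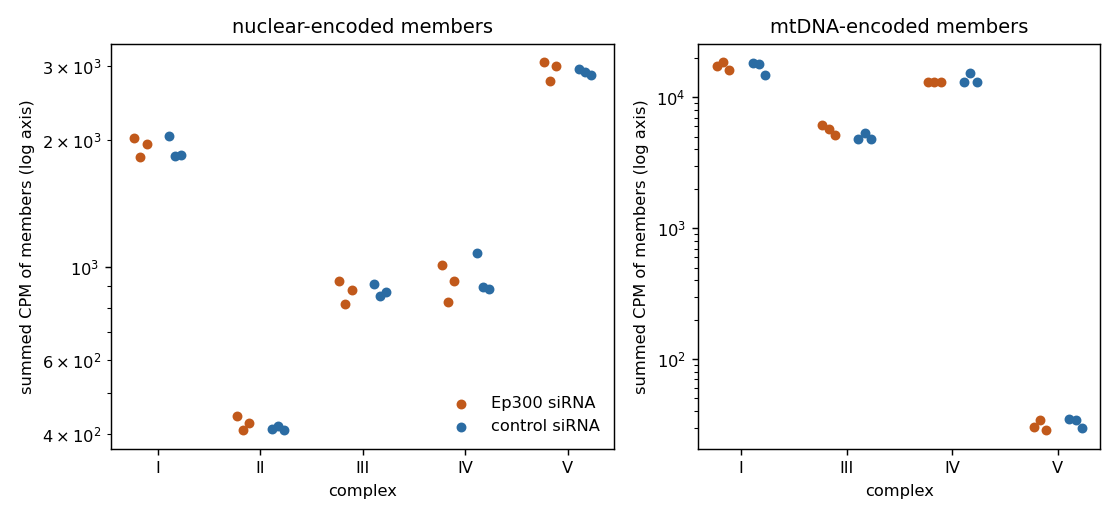
Summed CPM of the members of each complex (vertical log axes) in each library, for nuclear (left panel) and mtDNA-encoded members (right panel, complex II has none), with the 3 Ep300 siRNA libraries in orange left of the 3 control siRNA libraries in blue. In each complex the orange and blue points overlap in range, as in complex I, where nuclear members summed to 1827 to 2025 CPM after Ep300 siRNA and 1833 to 2049 CPM after control siRNA.

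Libraries of one group differed in the level of nuclear members as a whole. The median deviation of these members from their mean over all libraries was, on the log2 scale and by replicate number, 0.06, −0.11 and 0.02 with Ep300 siRNA, against 0.12, −0.04 and −0.03 with control siRNA. Control replicate 1 was the highest and Ep300 siRNA replicate 2 the lowest. Leaving out control replicate 1 moved the log2 fold changes of 27 of the 92 members upward by more than their standard error, and none of those 27 passed. The fold changes of small subunits such as Cox6c (−0.10, and 0.07 without that library) and Cox7b (−0.07, and 0.03 without it) changed sign when it was left out.

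Genes that act on the complexes without being members were examined in 6 lists, in which 8 genes fell and 1 rose. Over all 15741 genes tested, 633 fell (4.02%) and 435 rose (2.76%). Whether the lists differ from all genes in share or direction was not tested. Of 50 assembly factors, 2 fell and none rose (median log2 fold change −0.05). Acad9, a complex I assembly factor, had 26.5, 24.8 and 23.7 CPM after Ep300 siRNA and 30.3, 29.6 and 30.7 CPM after control siRNA (−0.28 ± 0.07, SE; edgeR adjusted p = 0.0347). Sdhaf2, which helps attach the flavin to Sdha, was at −0.24 ± 0.07 (SE, adjusted p = 0.0492). Neither call was stable: leaving out a library ended that of Acad9 for 5 of the 6 libraries (adjusted p up to 0.13) and that of Sdhaf2 for each of the 6 (adjusted p up to 0.147). Uqcc3, an assembly factor of complex III, had the smallest p among those with positive values (0.38 ± 0.11, SE, adjusted p = 0.0624), and it passed in 3 of 18 refits: with no filter on low counts, with DESeq2 (adjusted p = 0.0239) and without Ep300 siRNA replicate 2 (adjusted p = 0.0464).

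Of 21 further subunits, carriers and makers of ubiquinone that the symbol pattern leaves out, 1 fell and none rose (median −0.09). Coq5, a methyltransferase of ubiquinone synthesis, had 68.7, 67.6 and 69.3 CPM after Ep300 siRNA, against 83.9, 92.2 and 85.2 CPM after control siRNA, with the groups well apart. Its level was 0.787 of that in control cells (−0.35 ± 0.06, SE; edgeR adjusted p = 0.00594). Cytochrome c1 (Cyc1) was at −0.23 ± 0.07 (SE, adjusted p = 0.0763), cytochrome c (Cycs) at −0.12 ± 0.06 (adjusted p = 0.316) and Ndufab1, the acyl carrier protein that is also a complex I subunit, at −0.19 ± 0.08 (adjusted p = 0.17). Higd2a, an assembly factor of complex IV and supercomplexes, was at 0.46 ± 0.15 (SE, adjusted p = 0.0884), and it passed in 3 of 18 refits: with no filter on low counts (adjusted p = 0.0213), with the replicate number as a block (adjusted p = 0.0366) and without control replicate 1 (adjusted p = 0.0229). Cyc1 passed in 1, with library sizes alone (adjusted p = 0.0465).

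Of 28 genes of mtDNA maintenance and expression, 27 were tested, of which 3 fell and none rose (median −0.10), while no mtDNA mRNA passed. Hsd17b10 had 68.6, 56.8 and 68.0 CPM in Ep300-silenced cells, against 87.0, 90.4 and 88.7 CPM in control cells, and was at 0.727 of the control level (−0.46 ± 0.08, SE; edgeR adjusted p = 0.00464). Trmt10c had 61.3, 59.8 and 60.3 CPM, against 78.1, 75.5 and 71.6 CPM, in the same order of groups (−0.31 ± 0.06, SE; adjusted p = 0.00884). The proteins of both genes are known to work together in mitochondrial RNase P, which cuts tRNAs out of the long mtDNA transcripts. The third to fall was Ssbp1, which coats single-stranded mtDNA (−0.24 ± 0.06, SE; adjusted p = 0.0362). The call on Trmt10c was lost without control replicate 2 (adjusted p = 0.0508), and that on Ssbp1 was lost without any of 5 libraries (adjusted p up to 0.13), whereas Hsd17b10 passed without any of the 6. The polymerase Polrmt and the packaging factor Tfam did not pass, at −0.10 ± 0.09 and 0.09 ± 0.06 (SE), nor did Elac2, which cuts the other end of the tRNAs (0.14 ± 0.07).

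Among 18 regulators of mitochondrial biogenesis, 12 were tested, 1 fell and none rose (median 0.02). Ppargc1b, the coactivator PGC-1 beta, had 17.1, 16.8 and 15.4 CPM in Ep300-silenced cells, against 20.6, 25.2 and 24.7 CPM in control cells. Its groups were apart, and its level was 0.700 of that in control cells (−0.51 ± 0.09, SE; edgeR adjusted p = 0.00711). Its relative Ppargc1a had 8, 0 and 4 counts after Ep300 siRNA and 2, 2 and 0 after control siRNA, too few to test. The factors whose letters were searched in the promoters did not pass: Nrf1 was at −0.16 ± 0.08 (SE, adjusted p = 0.302), Gabpa at −0.04 ± 0.06 (adjusted p = 0.757) and Yy1 at 0.24 ± 0.11 (adjusted p = 0.25). Yy1 was at 0.11 without control replicate 2 and 0.36 without control replicate 3, and it passed with no filter on low counts (adjusted p = 0.0401). Esrra, a nuclear receptor that acts with the PGC-1 coactivators, was at 0.18 ± 0.08 (SE, adjusted p = 0.202), and Prkaa1, the catalytic subunit of AMP kinase, at 0.18 ± 0.07 (adjusted p = 0.142).

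Of 23 genes of the TCA cycle and pyruvate dehydrogenase, 22 were tested and none passed by edgeR (median −0.03), while unadjusted values under 0.05 were seen for 2, beside 3493 of the 15741 genes. Mdh2, malate dehydrogenase, was at −0.24 ± 0.07 (SE; edgeR adjusted p = 0.0742, DESeq2 adjusted p = 0.0255; past the threshold in 4 of 18 refits), and Sucla2 was at 0.08 ± 0.06. Of 20 genes of protein import and the mitochondrial membranes, 1 rose and 1 fell (median 0.02). Phb2, a prohibitin of the inner membrane, had 59.4, 62.7 and 68.3 CPM after Ep300 siRNA and 83.4, 80.5 and 83.3 CPM after control siRNA (−0.38 ± 0.06, SE; edgeR adjusted p = 0.00591). Mfn1, a fusion protein of the outer membrane, rose 1.24-fold (0.32 ± 0.07, SE; adjusted p = 0.0213), a call lost without Ep300 siRNA replicate 2 (adjusted p = 0.0939) or control replicate 2 (adjusted p = 0.0836). In all, the share that passed was 4% of assembly factors, 4.76% of further subunits and carriers, 11.1% of mtDNA expression genes, 8.33% of regulators and 10.0% of import and membrane genes, beside 6.78% of all genes, where 1 gene more or less moves the share of a short list by several points. Groups were apart for 22% of assembly factors, 42.9% of further subunits and carriers, 48.1% of mtDNA expression genes, 41.7% of regulators, 18.2% of TCA cycle genes and 45% of import and membrane genes, beside 27.5% of all genes.

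**Figure D5:**
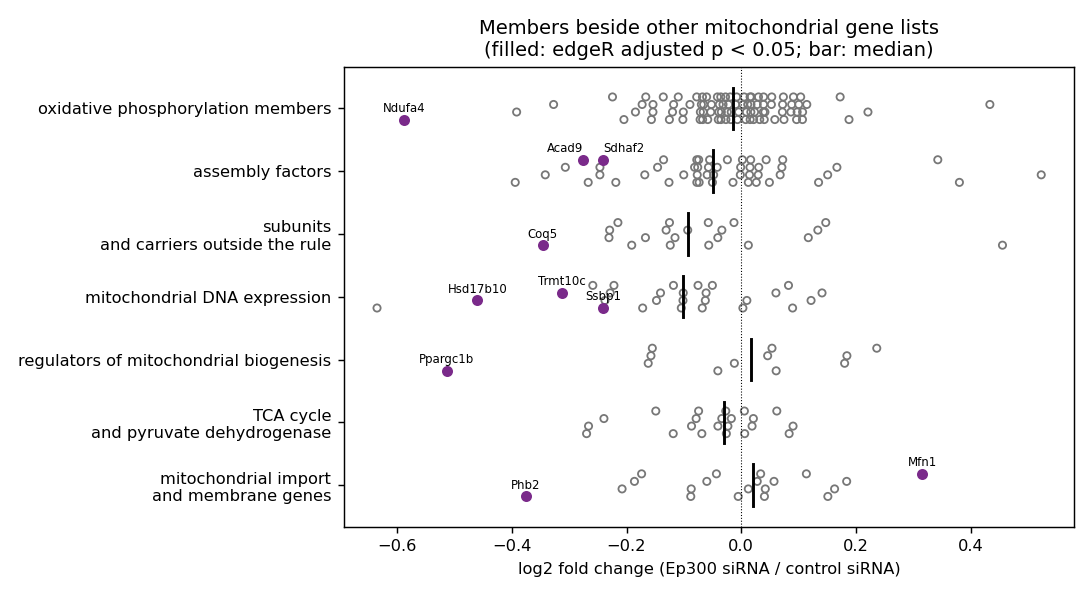
Log2 fold change (horizontal axis, Ep300 siRNA over control siRNA) of 91 of the 92 members tested and of each tested gene of the 6 other mitochondrial lists (rows); filled points passed an edgeR adjusted p of 0.05 and are named, and bars mark the median of each list. Medians lie between −0.10 and 0.02, and of the genes that passed outside the members, Mfn1 alone lies to the right of 0.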

How the data were processed

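The authors deposited unnormalized counts of reads for each gene symbol in the 6 libraries. The submitters' processing notes name GRCm38, STAR 2.5.3a, fastp 0.23.4, edgeR 3.12.1 and featureCounts; annotation, strand and multimapping settings are not given in the sources used. From 79.8 to 80.9% of counts of 1 to 4 were even, as when both mates of a pair are counted, so halved counts were an alternative. The tests are edgeR 4.0.16 (R 4.3.3) quasi-likelihood F-tests with filterByExpr and TMM, two-sided, Benjamini-Hochberg over 15741 genes, threshold 0.05, tested on simulated data. The common biological coefficient of variation was 8.62%. SE is the size of the log2 fold change over the root of F. CPM uses TMM-scaled sizes, and TPM the union of GENCODE M21 exons. Copies were aligned with blastn 2.17.0. Promoters are RefSeq's.

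The members and lists were chosen with earlier results of these data known. Named by rule were the members that passed, the smallest p in each direction per complex, genome and list, all mtDNA genes, the highest per length, isoforms, untested members and Ep300. Other genes were named after their values were seen. Alternatives were other scalings and filters, DESeq2 1.42.0, limma-voom 3.58.1, the replicate block, libraries left out and merged copies. The values of 1 member are not reported here; it stays in the counts, medians and sums.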

Additional observations from a re-analysis of the deposited data

How the results depend on the processing

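Ndufa4 passed the threshold in all 18 refits, with edgeR, DESeq2 or limma-voom adjusted p up to 0.0259 and log2 fold changes from −0.65 to −0.47, and it also passed at an adjusted p under 0.01. Members called numbered 2 in all settings except 2, in which Ndufb3 made them 3: with no filter on low counts (adjusted p = 0.0264) and with the replicate block (adjusted p = 0.0493). No mtDNA member passed in any setting. Of the 92 members, 50 changed sign under at least 1 setting, all with main values of at most 0.101 in size. Over all genes, 1721 passed with no filter on low counts (730 higher, 991 lower), 369 at an adjusted p under 0.01, and 490 to 1054 with 1 library left out (490 without control siRNA replicate 2), against 1068. On library sizes alone 316 rose and 788 fell. The median of mtDNA members ran from −0.068 (without control siRNA replicate 3) to 0.070 and that of nuclear members from −0.04 to 0.04 with 1 library left out. No label says whether the replicate numbers pair the libraries. As deviations from group means, same-numbered libraries correlated at 0.087, 0.020 and −0.047, which cannot decide the question with 3 libraries per group. With the replicate block 1357 genes and 3 members passed. Sdhaf2 also lost its call with RLE scaling, no filter, the block, DESeq2 and limma-voom (adjusted p 0.0528 to 0.0738). The merged copies and the scaling without them were added after the data were seen. Counts near 0 limit Cox4i2 and Cox7a1.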
